A study of Rattus norvegicus with 32 samples.

Results

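The genes described here encode the membrane transporters that carry amino acids, glucose and monocarboxylates such as lactate, in 9 solute carrier families: Slc1a, Slc2a, Slc3a, Slc6a, Slc7a, Slc16a, Slc36a, Slc38a and Slc43a. Members were found by the start of the gene symbol that the array's annotation gives a probe set, where that annotation gives a single symbol; 1 Slc38a symbol was set aside by the rule and is in none of the counts. A probe set was kept if its intensity was at least 10 on every array fitted, and a gene with several such probe sets was represented by that of the highest mean log2 intensity. Of 96 probe sets and 70 genes of these families on the array, 54 probe sets and 44 genes passed, out of 21068 probe sets and 11211 genes that passed in the whole data set. The families contributed 4 of 6 Slc1a genes, 7 of 9 Slc2a, 2 of 2 Slc3a, 6 of 16 Slc6a, 8 of 15 Slc7a, 7 of 9 Slc16a, 1 of 3 Slc36a, 7 of 8 Slc38a and 2 of 2 Slc43a. Slc7a6os is among the 8 Slc7a genes through its symbol alone, since it lies on the strand opposite Slc7a6 and is not known as a transporter.

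The samples were mammary glands of untreated, virgin Sprague Dawley rats with regular 4-day estrous cycles. Each of 32 rats was killed at a different hour between 7 h and 88.1 h after midnight of the first cycle day, and its RNA was hybridised to 1 Affymetrix rat expression array. Estrus fell on day 2. The 40 h array, which the study set aside because its values seemed faulty, was left out, so that 31 arrays entered the fit: 8 on day 1 (7 to 17.6 h), 8 on day 2 (31.6 to 43 h), 8 on day 3 (57 to 67.1 h) and 7 on day 4 (79.3 to 88.1 h). By clock hour, 17 rats were killed later in the day (after midday) and 14 earlier. No hour was replicated, so a rat is a replicate only of its day or of its part of the day. In whole gland, fewer cells of a type and less RNA per cell cannot be told apart. The sources differ on the tissue: the sample records name glands of a single position kept in a stabiliser and a column extraction, whereas the study's methods name frozen gland chains extracted with TriZol before the column.

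Amino acid transporters of the Slc1a, Slc6a and Slc38a families mostly carry their substrates into cells with sodium, while most Slc7a proteins exchange one amino acid for another and many of them reach the membrane only as a dimer with the heavy chain Slc3a2. Slc2a proteins let glucose and related sugars pass down their gradient, and the best known Slc16a proteins move lactate and other monocarboxylates together with a proton. The mammary gland draws on these families for milk protein and lactose when it secretes, and its fat pad takes up glucose through the insulin-responsive Slc2a4.

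Short stretches of promoter are given because rats were compared by hour of day and cycle day, and many of the genes carry amino acids. Amino acid supply was not varied. RefSeq windows (GRCr8, 250 bases before to 50 after the start of a transcript) matched 35 of the 44 genes. The E-box CACGTG, which the circadian factors CLOCK and BMAL1 are known to bind, was present in 5 of the 35 (14.3%) and in 6.65% of all 27457 windows. The upstream bases had a median GC content of 57.2% in members and 52% in all windows, for which these shares were not adjusted. In the fits below, none of these 5 genes was called along the day. The called Slc6a6, Slc2a1 and Slc7a6 had windows without an E-box, and the called Slc1a1 had no window. The letters run 5′ to 3′ along the gene, capitals mark the motif, and its first base is placed by its distance from the start.
Slc16a1, chr2:194812432-194812461, + strand, E-box at -216: gcagcgcctagtCACGTGgcgggaaggggg
Slc1a4, chr14:98761565-98761594, - strand, E-box at -20: gtccaagttcctCACGTGctgctgcttaga
Slc38a7, chr19:9215340-9215369, + strand, E-box at -26: gtgattcaaactCACGTGtttctagagtcg
Slc43a1, chr3:90327219-90327248, + strand, E-box at -91: caacaggcgagtCACGTGtgcatgaaactc
Slc7a5, chr19:66872574-66872603, - strand, E-box at -179: catcatacgctcCACGTGcttcaacagacc

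The core of the amino acid response element, TGATGNAA on either strand, to which ATF4 is known to bind with a partner, was in 3 of 35 windows (8.57%) and in 3.82% of all.
Slc1a4, chr14:98761779-98761808, - strand, core on the opposite strand at -235: cgcctccagcgTTGCATCAtccagccagca
Slc38a1, chr7:129681525-129681554, - strand, core at -142: gggggaaactcTGATGCAAccaaccagtcc
Slc7a1, chr12:11664447-11664476, + strand, core at -30: cggcgcgcggcTGATGAAAccggctcggat
The D-box letters TTATGTAA and TTACGTAA, searched on both strands, and the full palindrome of the glucocorticoid response element were in 0 of the 35 windows, against 0.881%, 0.128% and 0.422% of all windows. TATAAA, searched after the other motifs, was in 5 windows (14.3%, and 14.3% of all), among them that of Slc6a6, the gene with the largest change along the day.
Slc6a6, chr4:125752411-125752440, + strand, TATAAA at -79: ggagaagccgctTATAAAttaccgcttcct
These are matches of letters, and no binding was measured.

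Expression values are GC-RMA intensities, a background-corrected and normalised brightness per probe set on a linear scale. Array medians lay between 49.9 and 54.7. Change along the day is given as the log2 change over 10 h of clock time, from a limma fit with cycle day and clock hour, and cycle-day differences come from the same fit; p-values were adjusted by Benjamini-Hochberg over all 21068 probe sets. Of the marker lists, 14 of 15 luminal epithelial, 10 of 11 basal and myoepithelial, and 12 of 13 adipocyte genes were measured, as was the labelled tissue's keratin pair Krt8 and Krt18. Of the adipocyte, skeletal muscle, luminal and lymphocyte lists, skeletal muscle varied most between rats by mean log2 level (SD 2.06, 6 of 14 genes measured). Its summed intensity was 1606 to 37440 over the 17 rats later in the day and 2235 to 37385 over the 14 earlier.

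Along the day, the taurine transporter Slc6a6, the glucose transporter Slc2a1 and the amino acid exchanger Slc7a6 rose, and the glutamate transporter Slc1a1 fell. That is 3 members higher of 44, where 1.21% of all probe sets were called higher at later hours, and 1 lower, where 0.75% were called lower (limma, adjusted p under 0.05). The remaining 40 did not pass. Clock hour entered the fit as a straight line between 7 and 19.1 h, so a midday peak or a change at night was not tested. At an unadjusted p under 0.05 the number was 11 of 44, against 12.6% of all probe sets. The median size of the change, regardless of direction, was 0.23 on the log2 scale over the members and 0.10 over all probe sets. For day 3 against day 1 it was 0.155 and 0.104. The size of an estimate also grows with its noise, which was not matched between members and all probe sets.

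Slc6a6 carries taurine and beta-alanine into cells with sodium and chloride. Its intensity had a lowest, median and highest value of 1311, 1932 and 2518 in the 17 rats later in the day, against 825, 1136 and 1919 in the 14 rats earlier in the day. All 17 later rats lay above the earlier median and 9 of them above every earlier rat, so that the ranges overlapped. The means were 1920 ± 326 later (SD, n = 17) and 1201 ± 256 earlier (SD, n = 14). The fitted change was 1.04 on the log2 scale over 10 h (SE 0.11, limma adjusted p = 1.74e-07). It was positive on each day taken alone, at 0.81 (SE 0.21) on day 1, 1.06 (SE 0.20) on day 2, 1.18 (SE 0.22) on day 3 and 1.22 (SE 0.28) on day 4. The gene's other probe set gave 1.19 (SE 0.14, adjusted p = 8.75e-07). Over all 51 alternatives the adjusted p of Slc6a6 lay between 1.78e-08 and 9.70e-05.

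**Figure D1:**
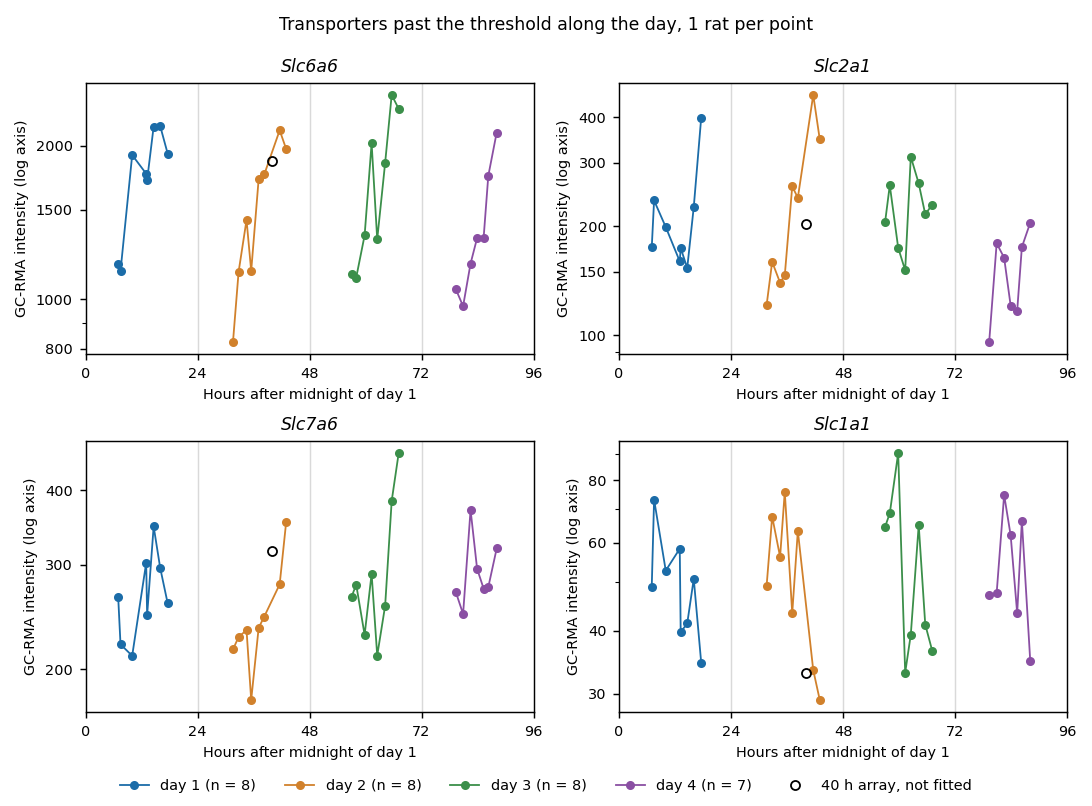
GC-RMA intensity (log axis) of Slc6a6, Slc2a1, Slc7a6 and Slc1a1 against hours after midnight of day 1, with 1 point per rat, lines joining the rats of a day, and the unfitted 40 h array as an open circle. Slc6a6 climbs on each of the 4 days, between 825 and 2518 in all, whereas Slc2a1 climbs most steeply on day 2.

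Slc2a1, the basal glucose transporter, had intensities of 117, 226 and 461 (lowest, median, highest) later in the day and 95.98, 169 and 260 earlier. Of the 17 later rats, 13 lay above the earlier median and 5 above every earlier rat. The change was 0.77 over 10 h (SE 0.20, limma adjusted p = 0.0415). By day it was 0.43 (SE 0.34) on day 1, 1.59 (SE 0.33) on day 2, 0.19 (SE 0.37) on day 3 and 0.68 (SE 0.47) on day 4. A limma moderated F test of whether the slope differed between days gave Slc2a1 an unadjusted p of 0.039 and an adjusted p of 0.9999. It called 0 of the 44 members and 0.00475% of all probe sets. At an unadjusted p under 0.05 it had 2 of 44, Slc2a1 among them, against 3.56% of all. The adjusted p does not show that the slopes were equal. Without day 2 the change was 0.40 (adjusted p = 0.66). The call was also lost when any 1 of the rats killed at 88.1, 86.3, 79.3, 64.2, 59.8, 43, 41.6, 38.3, 35.5, 34.5, 32.8, 31.6, 17.6, 16 or 7 h was left out. Over all 31 fits that left out 1 rat, the change lay between 0.65 and 0.86, with limma adjusted p-values up to 0.112.

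The other 6 glucose and sugar transporters did not pass along the day. Slc2a4, the insulin-responsive transporter of fat and muscle, had 90.8, 248.8 and 530 later in the day and 144, 268 and 675 earlier, a change of -0.50 (SE 0.28, limma adjusted p = 0.479). With the mean log2 level of the adipocyte list as a covariate it was -1.02 (adjusted p = 0.00145), and with the adipocyte, skeletal muscle, luminal and lymphocyte lists together -0.96 (adjusted p = 0.0126). The adipocyte level was itself higher later in the day, with a mean log2 deviation of 0.12 against -0.14 earlier, so this covariate also carries the hour. Slc2a3, another high-affinity glucose transporter, had a change of -0.37 (SE 0.13, adjusted p = 0.142). The fructose transporter Slc2a5, the intracellular Slc2a8, the urate transporter Slc2a9 and the myo-inositol transporter Slc2a13 lay between -0.08 and 0.34.

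Among the Slc7a exchangers and their heavy chain, only Slc7a6 passed. Slc7a6, which exchanges cationic for neutral amino acids, had 211, 278 and 462 later in the day and 178, 240 and 371 earlier. Of the later rats 15 of 17 were above the earlier median, but only 2 were above every earlier rat. Its change of 0.45 (SE 0.12, limma adjusted p = 0.0464) was close to the threshold. Leaving out any 1 of the rats at 88.1, 83.9, 80.9, 79.3, 67.1, 65.6, 61.3, 59.8, 57, 43, 41.6, 38.3, 37.1, 34.5, 32.8, 31.6, 16, 14.6, 13.2, 13, 10 or 7.5 h lost the call. Over all 31 fits that left out 1 rat, the change lay between 0.37 and 0.50, with limma adjusted p-values up to 0.151. Slc7a6os, its neighbour on the opposite strand, had a change of 0.07 (SE 0.08).

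Slc7a5, the exchanger that imports large neutral amino acids such as leucine, had 38.6, 65.7 and 134 later and 35.7, 50.9 and 67.9 earlier, with 8 of 17 later rats above every earlier rat. Its change was 0.52 (SE 0.22, adjusted p = 0.28). By day it was 1.24 (SE 0.36) on day 2 and between -0.05 and 0.74 on the others. The heavy chain Slc3a2 itself had 1420, 1910 and 2411 later and 1557, 2024 and 2431 earlier, a change of -0.14 (SE 0.11, adjusted p = 0.615). Slc3a1, the heavy chain of the cystine exchanger of kidney and gut, was at 0.01 (SE 0.26), and its known partner Slc7a9 reached at most 5.41 on any array and failed the filter. The remaining light chains were at 0.31 (SE 0.26) for Slc7a10, -0.09 (SE 0.30) for Slc7a7 and -0.09 (SE 0.18) for Slc7a8, and the cationic transporter Slc7a1 at 0.21 (SE 0.18).

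Slc1a1, which takes up glutamate, aspartate and cysteine, fell along the day. It had 29.1, 41.2 and 66.4 later in the day and 47.2, 63.3 and 90.6 earlier, and 12 of 17 later rats were below every earlier rat. The change was -0.70 (SE 0.19, limma adjusted p = 0.0433). The gene's other probe set gave -0.55 (SE 0.21, adjusted p = 0.229). The call was lost on leaving out any 1 of the rats at 88.1, 85.3, 67.1, 65.6, 59.8, 58, 57, 43, 41.6, 34.5, 32.8, 17.6, 14.6, 13.2, 10 or 7.5 h. Over all 31 fits that left out 1 rat, the change lay between -0.77 and -0.62, with limma adjusted p-values up to 0.133. With 4 marker lists as covariates the change was -0.87 (SE 0.15, adjusted p = 0.00139). The luminal list, with whose level Slc1a1 moved between rats, averaged -0.01 later in the day and 0.01 earlier, as deviations in log2 from its mean over rats. In the same family the glutamine transporter Slc1a5 was at 0.44 (SE 0.24), the glutamate transporter Slc1a3 at 0.23 (SE 0.20) and the serine and alanine transporter Slc1a4 at -0.29 (SE 0.15), none of which passed.

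In the monocarboxylate family 0 of 7 members passed. Slc16a1 had 379, 512 and 728 later in the day and 427, 635 and 1095 earlier, with 16 of 17 later rats under the earlier median, a change of -0.49 (SE 0.15, limma adjusted p = 0.0899). Slc16a3, known for lactate export from glycolytic cells, had 17.2, 30.5 and 61.4 later and 24.2, 29.9 and 49.7 earlier, with 9 of 17 later rats above the earlier median and 8 below it, and a change of -0.57 (SE 0.19, adjusted p = 0.142). Slc16a7, a pyruvate and lactate carrier, was at 0.28 (SE 0.18), the aromatic amino acid carrier Slc16a10 at -0.08 (SE 0.15), Slc16a12, a carrier of creatine, at 0.30 (SE 0.16), and Slc16a6 and Slc16a9 lay between -0.22 and 0.14.

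Slc43a1, a facilitative transporter of branched-chain amino acids, came near the threshold. It had 179, 513 and 746 later in the day and 255, 353 and 436 earlier, and 10 of 17 later rats were above every earlier rat. Its change was 0.64 (SE 0.19, limma adjusted p = 0.0936). The lowest value of all 31 rats, 179 at 62.5 h, was also from a later rat, and without it the adjusted p was 0.0365. Slc43a2, its relative, was at 0.15 (SE 0.11).

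The sodium-coupled Slc38a family had 0 of 7 members past the threshold. Slc38a2, which imports small neutral amino acids such as alanine and glutamine, had the narrowest spread over rats in its family, with 1741, 1977 and 2351 later in the day and 1607, 2001 and 2263 earlier. Its change was 0.03 (SE 0.07). The largest estimate in the family was -0.41 (SE 0.28) for Slc38a4, and the lysosomal proteins Slc38a7 and Slc38a9 were at 0.23 (SE 0.13) and -0.23 (SE 0.18). Slc36a2, a proton-coupled transporter of glycine, alanine and proline, had 152, 336 and 546 later and 87.5, 243 and 380 earlier, with a change of 0.45 (SE 0.25, limma adjusted p = 0.46). Besides Slc6a6, the Slc6a family had the creatine transporter Slc6a8 at 0.16 (SE 0.15), the glycine transporter Slc6a9 at 0.09 (SE 0.15), the serotonin transporter Slc6a4 at 0.03 (SE 0.16), the proline transporter Slc6a20a at -0.11 (SE 0.12) and Slc6a14, the widest of all, at -0.59 (SE 0.50).

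**Figure D2:**
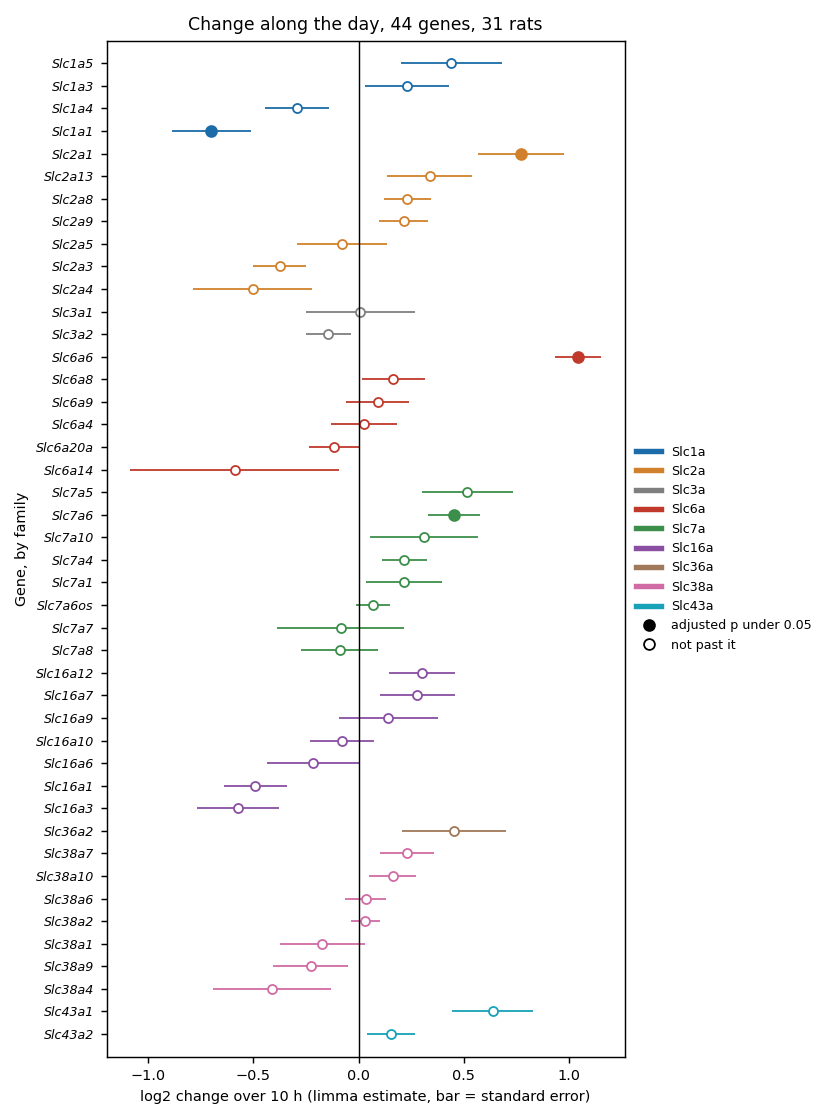
Change along the day of the 44 genes, by family, as the log2 change over 10 h from the limma fit to 31 rats, with bars of 1 standard error and filled points where the adjusted p is under 0.05. The filled points are Slc6a6 at 1.04, Slc2a1 at 0.77, Slc7a6 at 0.45 and Slc1a1 at -0.70.

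Between cycle days, the amino acid exchanger Slc7a7 was lower on day 3, the day after estrus, than on day 1, and no other member passed. Day 3 against day 1 called 0 of 44 members higher, where 0.403% of all probe sets were called, and 1 lower, where 0.721% were (limma, adjusted p under 0.05). At an unadjusted p under 0.05 it was 9 of 44, against 13.8% of all. The moderated F test over all 4 days called 1 member, the same gene, and 0.574% of all probe sets. At an unadjusted p under 0.05 it had 8 of 44, against 10.9%. The other 5 pairs of days called 0 members in either direction. Of all probe sets, day 2 against day 1 called 0.00475% higher and 0% lower, day 4 against day 1 called 0.00475% higher and 0.019% lower, and day 3 against day 2 called 0.0665% higher and 0.204% lower. Day 4 against day 2 called 0.0285% higher and 0.0142% lower, and day 4 against day 3 called 0% in both directions. At an unadjusted p under 0.05 these had 5 members (5.78% of all probe sets), 6 (6.47%), 6 (12.7%), 6 (7.48%) and 3 (5.79%), in the same order.

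Slc7a7 encodes the light chain that exports cationic amino acids across basolateral membranes and is also known from macrophages. Its intensities on day 3 were 154, 123, 147, 104, 88.7, 104, 112 and 165, from 57 h to 67.1 h, against 332, 434, 345, 126, 543, 398, 391 and 451 on day 1, from 7 h to 17.6 h. Every day 3 rat lay below every day 1 rat except that of 13 h, the exception at 126, which was above 5 of the 8 day 3 rats. The means were 125 ± 27.7 on day 3 and 378 ± 121 on day 1 (SD, n = 8 each). The difference was -1.52 on the log2 scale (SE 0.29, limma adjusted p = 0.00715), and the F test over days gave an adjusted p of 0.0273. Day 2 had a median of 289 (124 to 603) and day 4 one of 156 (72.8 to 331). Day 4 against day 1 was -1.20 (SE 0.30, adjusted p = 0.243) and day 3 against day 2 was -1.01 (SE 0.29, adjusted p = 0.138).

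Within day 2 the first 4 rats had Slc7a7 intensities of 287 to 303, the next had 124 and 603, and those at 41.6 h and 43 h had 178 and 139. Over 41.6 to 67.1 h the median was 131 (88.7 to 178, n = 10), against 339 (124 to 603, n = 14) over 7 to 38.3 h. The day 3 call held in all 31 fits that left out 1 rat, with changes between -1.73 and -1.43 and adjusted p-values up to 0.0248. The F test lost it without the rat at 13.2, 14.6, 16 or 17.6 h.

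Of 12 macrophage markers 1, the scavenger receptor Cd163, was lower on day 3 (-0.63, SE 0.12, adjusted p = 0.00777), 0 were higher and 11 did not pass, where 0.721% of all probe sets were called lower and 0.403% higher. The list's median change was -0.35, against -0.00 for all probe sets. Its mean level was -0.16 ± 0.21 on day 3 and 0.17 ± 0.14 on day 1 (log2 deviations, SD, n = 8 each), and its summed intensity ranged over 8710 to 15424 on day 3 and 11051 to 15254 on day 1. With that level as a covariate, Slc7a7 was at -1.33 on day 3 (SE 0.34, limma adjusted p = 0.188), and that fit called 10 probe sets in all. On the same comparison and against the same shares, 2 of 14 luminal genes (Krt8 and Krt18) were higher on day 3, 1 (Prom1) was lower and 11 did not pass, and of the 10 basal genes 4 were higher (Cnn1, Tagln, Myh11 and Mylk, proteins of contractile cells) and 1 (Oxtr, the oxytocin receptor) lower. Of 13 mitosis genes 4 were higher. With the luminal level as a covariate Slc7a7 was at -1.51 on day 3 (SE 0.28, adjusted p = 0.00459), and Slc16a1 was also called, at 0.48 (SE 0.11, adjusted p = 0.0208).

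Slc6a14, a concentrative transporter of neutral and cationic amino acids, had the widest range of the members, 25.5-fold between its lowest and highest rat. Its medians were 106 (21.1 to 292) on day 1, 35.8 (24.5 to 111) on day 2, 177 (40.9 to 538) on day 3 and 258 (98.9 to 354) on day 4. Day 2 was thus the low point, although its range overlapped that of each other day. The F test over days gave an adjusted p of 0.0653, day 3 against day 2 was 1.92 (SE 0.48, adjusted p = 0.0777) and day 4 against day 2 was 2.11 (SE 0.49, adjusted p = 0.12), none of which passed.

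**Figure D3:**
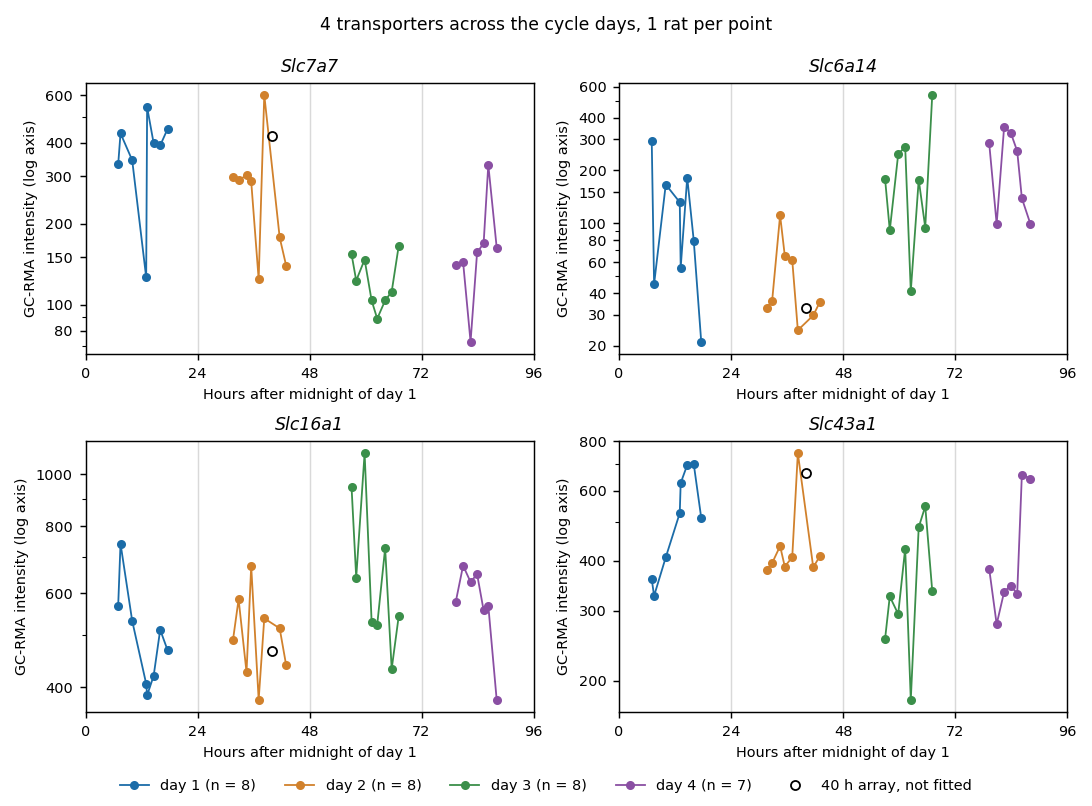
GC-RMA intensity (log axis) of Slc7a7, Slc6a14, Slc16a1 and Slc43a1 against hours after midnight of day 1, with 1 point per rat, lines joining the rats of a day, and the unfitted 40 h array as an open circle. All Slc7a7 values of day 3 are at or below 165, and those of day 1 are at or above 332 except 126 at 13 h.

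Slc43a1 had a median of 331 (179 to 548) on day 3 and 520 (327 to 700) on day 1, with 4 of 8 day 3 rats below every day 1 rat, and a difference of -0.67 (SE 0.19, limma adjusted p = 0.0732). Slc16a1 had 592 (433 to 1095) on day 3 and 491 (387 to 742) on day 1, and a difference of 0.47 (SE 0.14, adjusted p = 0.11). Slc2a4 had 276 (153 to 675) on day 3 and 188 (90.8 to 342) on day 1, a difference of 0.71 (SE 0.27, adjusted p = 0.228), which was 0.99 (adjusted p = 0.0038) with the adipocyte list as a covariate. The light chain Slc7a8 had 146 (68.3 to 200) on day 3 and 186 (143 to 239) on day 1, and a difference of -0.41 (SE 0.18, adjusted p = 0.29). The lysosomal Slc38a7 was at -0.32 (SE 0.13, adjusted p = 0.23).

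Among the genes that changed along the day, day 3 against day 1 was -0.23 (SE 0.11) for Slc6a6, -0.02 (SE 0.20) for Slc2a1, 0.05 (SE 0.12) for Slc7a6 and 0.19 (SE 0.18) for Slc1a1, none of which passed. The other probe set of Slc6a6 was at -0.51 (SE 0.13, limma adjusted p = 0.0503). Family medians of day 3 against day 1 were small: -0.04 for Slc16a, 0.07 for Slc1a, -0.01 for Slc2a, -0.02 for Slc38a, 0.03 for Slc6a and 0.01 for Slc7a. The 2 Slc43a genes had -0.67 and -0.15, the 2 Slc3a genes -0.04 each, and Slc36a2 had 0.32.

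**Figure D4:**
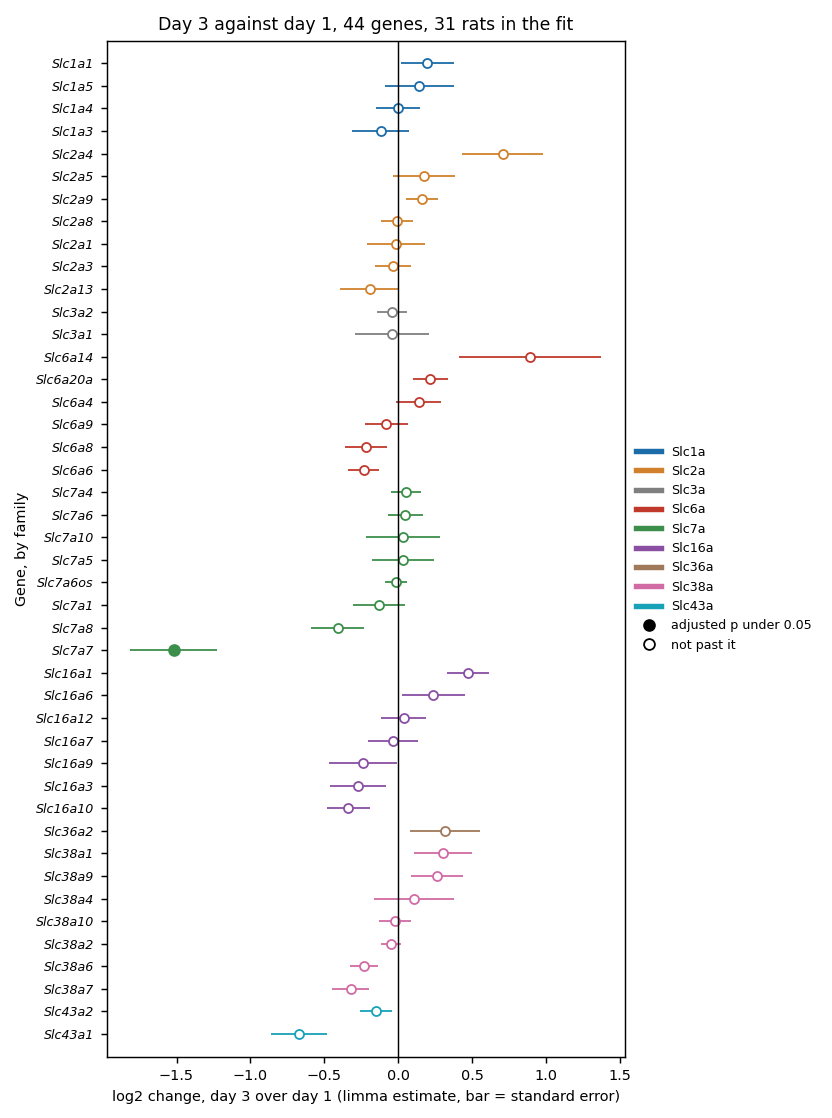
Day 3 against day 1 for the 44 genes, by family, as the log2 change from the limma fit to 31 rats, with bars of 1 standard error and filled points where the adjusted p is under 0.05. Slc7a7 at -1.52 is the only filled point, and Slc6a14 at 0.89 has the widest bar.

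The study's own test of variation over the 81-hour course, a piecewise linear spline whose explained share of the variance, rho, is set against permuted arrays, was applied to the same values. It does not separate the hour from the day. It called 8 of 44 members at a false discovery rate of 0.25, where 9.06% of all probe sets were called. Slc6a6 had the highest rho, 0.817, followed by Slc2a1 at 0.613, Slc7a7 at 0.594, Slc6a14 at 0.511, Slc43a1 at 0.490, Slc7a6 at 0.488, Slc16a1 at 0.481 and Slc7a4 at 0.450. Slc7a4, a relative of the cationic amino acid transporters, had 30.5, 36.4 and 51.1 later in the day and 27.1, 34.2 and 39.7 earlier, with a change of 0.22 (SE 0.11, limma adjusted p = 0.392). The median rho was 0.263 over the members, 0.248 over all probe sets and 0.219 in permuted data. Slc6a6, Slc2a1 and Slc7a7 were called in all 31 runs that left out 1 rat, while Slc7a4 was called in 7 of them. With a spline of order 3, Slc6a6, Slc7a7, Slc16a1 and Slc43a1 were called and Slc2a1 was not. Slc1a1 (rho 0.371, adjusted p = 0.457) was not called.

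Several transporters moved between rats with the level of adipocyte markers, a comparison chosen after seeing the data. The adipocyte list, as the mean log2 level of its 12 measured genes, ranged from -0.52 to 0.77 around its mean over the 31 rats and was 0.12 ± 0.30 later in the day (SD, n = 17) and -0.14 ± 0.25 earlier (SD, n = 14). Its summed intensity ranged from 55499 to 96430 later and from 59037 to 82169 earlier. Along the day 3 of its 12 genes were higher and 0 were lower, where 1.21% and 0.75% of all probe sets were called. The 3 were the lipid droplet proteins Plin4 at 1.23 and Cidec at 0.74, and the regulator Pparg at 0.92. The other 9 did not pass and lay between -0.06 (Adipoq) and 0.45 (Lep), so the rise of the list along the day was not shared by all its markers. Fitted beside day, hour and the muscle, luminal and lymphocyte levels, the adipocyte level was linked with 9 members upward, where 4.17% of all probe sets were called, and with 1 downward, where 1.3% were.

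Slc7a10, an exchanger of small neutral amino acids known as a surface marker of white fat cells, changed by 1.56 log2 per log2 unit of the adipocyte level (SE 0.22, limma adjusted p = 6.86e-05). Its intensity ran from 253 to 842 over the rats. Slc2a4 followed with 1.52 (SE 0.29), the glutamine transporter Slc1a5 with 1.19 (SE 0.21), the myo-inositol transporter Slc2a13 with 1.11 (SE 0.15) and Slc36a2, also known from fat cells, with 1.08 (SE 0.24). Slc1a3 (0.96), Slc43a1 (0.92), Slc16a7 (0.84) and the creatine transporter Slc6a8 (0.78) also rose with it, and Slc43a2 fell by 0.59. Without the rat at 62.5 h Slc43a1 was not called and without that at 65.6 h Slc43a2 was not, and the other 8 were called in all 31 fits that left out 1 rat. Slc6a6, Slc2a1, Slc7a6, Slc1a1 and Slc7a7 were not among the 10. Of these, Slc6a6 came near, at 0.47 (SE 0.15, limma adjusted p = 0.0638), and was called in 4 of the 31 fits that left out 1 rat.

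**Figure D5:**
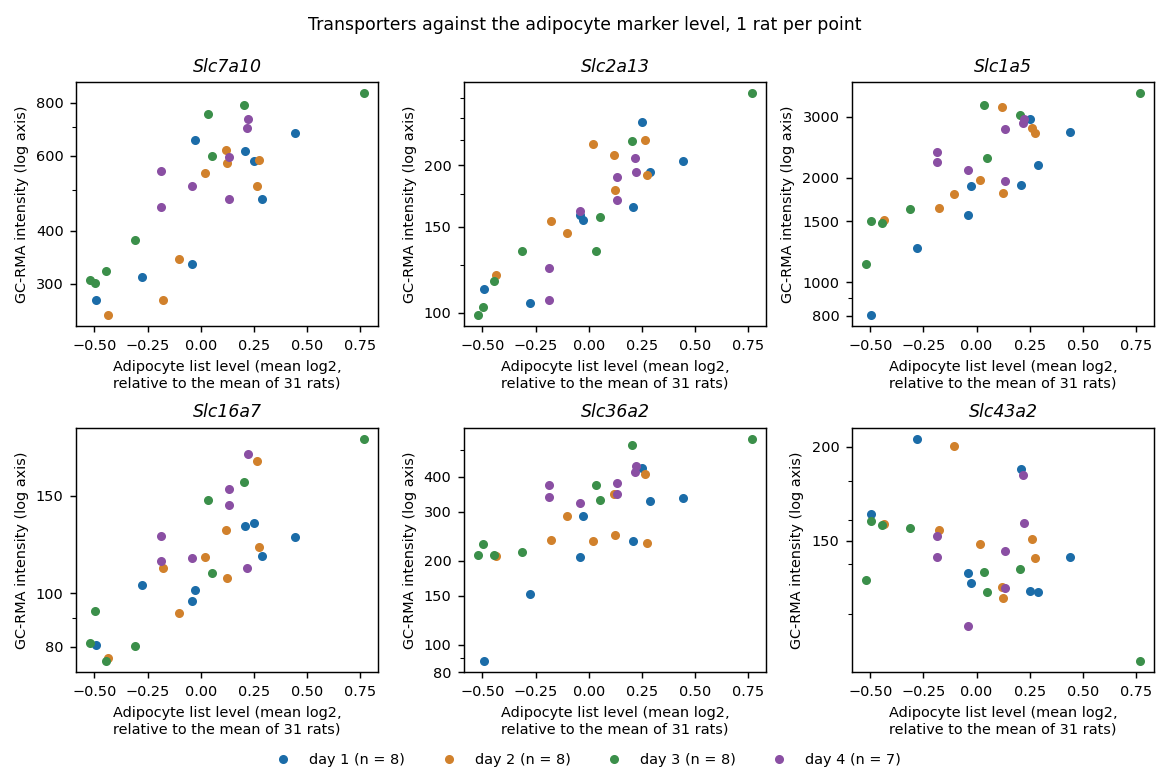
GC-RMA intensity (log axis) of Slc7a10, Slc2a13, Slc1a5, Slc16a7, Slc36a2 and Slc43a2 against the adipocyte list level (mean log2 of 12 genes relative to the mean of 31 rats), with 1 point per rat and colours by cycle day. Of these, the first 5 are higher in rats with more adipocyte signal (Slc7a10 between 253 and 842), and Slc43a2 is lower.

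Fewer members moved with the other tissue levels. With the luminal epithelial level rose Slc1a1 (1.55 per log2 unit, SE 0.31, limma adjusted p = 0.00738) and the heavy chain Slc3a2 (0.92, SE 0.21, adjusted p = 0.0153), where 1.94% of all probe sets were called higher, and 0 members fell, where 0.983% were called lower. With the lymphocyte level rose Slc38a1, a transporter of glutamine (0.41, SE 0.06, adjusted p = 0.000124), and Slc16a6 (0.29, SE 0.08, adjusted p = 0.0446), where 1.69% were, and 0 members fell, where 0.0285% did. The skeletal muscle level called 0 members higher or lower, and 0.494% and 0.00949% of all probe sets.

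Genes that work beside the transporters were read from 4 lists. Of all probe sets, 1.21% were called higher and 0.75% lower along the day, and 0.403% and 0.721% on day 3 against day 1. Of 16 measured glycolysis genes 0 passed along the day or between day 3 and day 1, with median changes of 0.04 and 0.09. Of 19 genes of the amino acid response and serine synthesis, 2 were higher along the day, Ddit4, an inhibitor of mTORC1, at 1.44 (SE 0.19, limma adjusted p = 1.11e-05) and Phgdh, the first enzyme of serine synthesis, at 0.73 (SE 0.17, adjusted p = 0.0167). The pseudokinase Trib3 was lower at -0.78 (SE 0.18, adjusted p = 0.0138), and the regulator Atf4 (0.06) and asparagine synthetase Asns (0.13) did not pass. Of 11 measured partners and ion pump subunits 1 was lower, the arrestin domain protein Arrdc4 at -0.93 (SE 0.19, adjusted p = 0.00525), while its relative Txnip was at -0.20 (SE 0.10) and the lactate carriers' chaperone Bsg at 0.15 (SE 0.09). Lactose synthesis and milk protein genes had 0 of 8 past the threshold in either comparison, and 0 of the 4 lists had a member called on day 3.

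The 26 family genes that failed the filter were mostly dim on every array. Closest to it was Slc16a13, with a lowest value of 9.94 and a median of 25.9, followed by Slc6a17 (lowest 9.01) and the cystine importer Slc7a11 (lowest 8.92, median 24.8). Just inside it was Slc38a7, with a lowest value of 10.5 at 62.5 h and a median of 21.96. The liver glucose transporter Slc2a2 reached at most 5.13 and the neuronal glutamate transporter Slc1a6 at most 7.96.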

How the data were processed

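RNA from 32 rat mammary glands had been measured on Affymetrix rat expression arrays. The authors deposited linear intensity values made by GC-RMA, as the submitters' processing notes also state; its version is not given in the sources used here. Here 57 control probe sets and the 40 h array were left out, intensities were put on the log2 scale, and probe sets under 10 on any of the 31 arrays were dropped. Platform annotation gave a single symbol to 20826 probe sets, several to 436 and none to 9780. Slopes and day contrasts were fitted with limma 3.58.1 (R 4.3.3), and the study's spline test was rebuilt with numpy 2.4.6 and scipy 1.17.1 in Python 3.11.15. Adjusted p-values under 0.05 were called. Both tests were tested on simulated data over 21068 probe sets. Changes were added to randomly drawn probe sets with independent noise of each one's own spread, so the rates describe typical probe sets, not noisier members. There limma recovered 94% of changes of 1 log2 and 56% (along the day) or 44% (day 3) of changes of 0.5. The spline test recovered 88.7% of steps of 2 SD at 40 h, and 24.4% of its calls were false.

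Members and lists were chosen with earlier results of these data known. Genes were named if called, if highest in level or change within a family, if pairing with Slc3a2, or if beside the filter. The sources used here give no scan batch. The number of arrays limits the precision, and p-values measure the spread between single rats. Alternatives covered filters, scaling, weights, covariates and left-out rats and days.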

Additional observations from a re-analysis of the deposited data

Results flagged for a closer look

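In 84 groups of 7 or 8 rats (21 named genes on 4 days), 6 held a rat whose log2 gap to its nearest neighbour was large against the range of its group; chance flags about 1 in 20 groups. Slc16a1 had 379 at 88.1 h, the lowest of day 4, where the next rat had 556.9. Slc2a1 had 399.6 at 17.6 h, the highest of day 1, where the next had 235.8. Slc38a7 had 27.12 at 38.3 h, the highest of day 2 (next 22.78), and 10.47 at 62.5 h, the lowest of day 3 (next 18.03). Slc43a1 had 746.1 at 38.3 h, the highest of day 2 (next 435.6). Slc7a7 had 126.4 at 13 h, the lowest of day 1 (next 332.4), and its day 3 difference was -1.73 without that rat.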

How the results depend on the processing

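The count of members changed along the day (4) was 1 without the filter, 2 with median centring, 1 without day 1, 1 without day 2, 2 without day 3 and 2 without day 4, and between 1 and 5 when 1 rat was left out; Slc6a6 was called in every one of these. With the skeletal muscle list as a covariate it was 2. For day 3 against day 1 (1 member) the count was 3 with array weights, 2 with 4 marker lists and 2 for 41.6 to 67.1 h against 7 to 38.3 h. With single lists it was 3 (adipocyte), 2 (skeletal muscle), 2 (luminal) and 0 (macrophage), and between 1 and 2 with 1 rat left out. The F test over days (1 member) called 2 with all 32 arrays, 3 with array weights, 2 with 4 lists and 0 to 2 with 1 rat left out. The spline test (8 members, 1908 probe sets in all) called 3 at a false discovery rate of 0.05 (373 in all) and 4 with a spline of order 3 (844 in all). With 1 rat left out it called 3 to 12 members, the 12 where 2586 probe sets were called in all and 3 where 665 were. The adipocyte level (10 members) was linked with 16 when fitted without the other lists, and with 9 to 12 when 1 rat was left out. The single-list covariates and all settings of the adipocyte level were chosen after seeing the data. Only for the spline test are the calls over all probe sets given here, and a count of members can move with them. The cause of the changes in count was not tested. No value past a threshold changed sign in any of these settings. No paired analysis was possible because each array came from a different rat.

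With 7 or 8 rats a day and 1 rat an hour, differences between days rest on few animals, and a p-value over the threshold does not show that a member was level. The calls of Slc2a1, Slc7a6 and Slc1a1 lay close to the threshold, with adjusted p-values of 0.0415, 0.0464 and 0.0433.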

Other observations

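The 40 h array, left out of every fit but that of all 32 arrays, lay within the range of the other 31 for 41 of the 44 members. It was above that range for Slc16a3 (66.7) and Slc7a1 (304) and below it for Slc7a4 (26.7). Slc7a7 had 425 there, and Slc6a6 had 1867.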
